A study of Homo sapiens with 6 samples.

Results

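The genes described here are 10 transcription factor genes of the AP-1 family and the immediate early response, chosen by name: FOS, FOSB, FOSL1, FOSL2, JUN, JUNB, JUND, ATF3, EGR1 and MAFF. They are 10 of the 58288 gene identifiers in the deposited table of read counts, and all 10 passed the filter on low counts that left 14415 genes for testing. The counts came from T24, an established human bladder cancer (Bca) cell line, transfected with Lipofectamine 2000. Cells received a negative control siRNA (NC, siControl in the labels) or 1 of 2 siRNAs against circ235, a circular RNA made from exons of CCNY, and the 2 siRNAs are named si-circ235-1 and si-circ235-2. Each of the 3 conditions had 2 biological replicate libraries from 1 cell line, made from oligo dT enriched RNA and sequenced without strand information. The comparisons ask which genes changed when circ235 was targeted and whether the 2 siRNAs gave the same result. The counts are per gene, so circ235 itself was not analysed here and the knockdown could not be checked from them.

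AP-1 is a dimer of a JUN protein with another JUN protein, a FOS protein or an ATF protein, and it binds the sequence TGANTCA or the cAMP response element (CRE) TGACGTCA. Many of its genes, though not all, are immediate early genes, which serum, growth factors and stress switch on within minutes. MAP kinases do this by acting on factors already present in the cell. Among these are serum response factor (SRF) and the ternary complex factors at CArG boxes, and JUN and ATF dimers at CRE-like words. In bladder and other epithelial cancers AP-1 is known for its part in proliferation, invasion and matrix breakdown, and FOSL1 is known as the FOS protein that stays high when the RAS and MAP kinase pathway is active.

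Promoter windows were searched for words through which this circuit is known to act, and lines are shown only for genes with a match. RefSeq sequences (GRCh38.p14) from 250 bases before to 50 bases after the RefSeq gene start were matched for 9 of the 10 genes by symbol, all except FOSL1. The RefSeq starts are not those of the GENCODE gene positions given for each gene below, so the windows of JUN, MAFF and FOSL2 lie inside the GENCODE genes. The words searched on both strands were TGACGTCA (CRE), TGANNTCA (CRE-like, which includes the CRE), TGANTCA (AP-1 site), GCGNGGGCG (EGR site) and the CArG box. They occurred in 1.98%, 11.8%, 7.76%, 9.28% and 1.29% of 27305 promoters. Each line below gives 28 bases on the strand of the gene, 5′ to 3′, with the matched word in capitals.
JUN, CRE-like, chr1:58784097-58784124, minus strand: ggccttggggTGACATCAtgggctattt
ATF3, CRE-like, chr1:212565274-212565301, plus strand: acctatgataTGACATCAtatggccact
MAFF, CRE, chr22:38201930-38201957, plus strand: gccgggtcggTGACGTCAccgcatgact
JUND, CRE, chr19:18281805-18281832, minus strand: gccgcccccaTGACGTCAacccacaagg
FOSL2, AP-1 site, chr2:28392851-28392878, plus strand: tgccattgtagTGACTCAtctcgggcag
EGR1, CArG box, chr5:138465365-138465392, plus strand: ccggtcctgCCATATTAGGgcttcctgc
EGR1, CArG box, chr5:138465387-138465414, plus strand: tcctgcttcCCATATATGGccatgtacg

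A CRE-like word was found for 4 genes (JUN, JUND, ATF3 and MAFF) and a full CRE for JUND and MAFF. In these windows an AP-1 site was found for FOSL2 alone, and a CArG box and an EGR site for EGR1 alone. The windows of FOS, FOSB and JUNB held none of the words, and sequence outside the windows was not searched. The words of JUN and ATF3 had the same 8 letters, TGACATCA. The matches describe letters in these windows and say nothing of binding in T24 cells.

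The libraries held 15373992 to 19912893 counts in genes. Levels are given in CPM, read counts scaled to a common library size, here with trimmed mean of M values (TMM) factors, and p-values are from edgeR's quasi-likelihood test adjusted by the Benjamini-Hochberg method over all 14415 genes, with a threshold of 0.05 for a gene to be called. The 2 replicates of a condition were distinct libraries: their chi-square over genes, divided by its degrees of freedom, was 34.9 for NC, 27.1 for si-circ235-1 and 23.4 for si-circ235-2, above the value near 1 of sampling noise alone. The keratin and EPCAM list summed to 3057 to 5566 CPM in the 6 libraries, while leukocyte markers reached at most 0.183 CPM, fibroblast markers 1.68 CPM and endothelial markers 2.62 CPM. The list of urothelial markers summed to 24.3 to 52.5 CPM, and none of its 4 uroplakin genes passed the filter on low counts. In RNA from whole cultures, fewer cells expressing a gene and less of its RNA per cell cannot be told apart.

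In NC cells the order of the 10 genes was set by CPM per kilobase of exon, a level corrected for length. FOSL1, whose product is FRA1, was highest at 147 CPM per kb and was followed by JUND at 126 CPM per kb, with the replicate ranges of the pair overlapping. JUN at 21.4 CPM per kb and JUNB at 19.1 CPM per kb also overlapped each other. MAFF followed at 9.92 CPM per kb, apart from its neighbours on this scale. EGR1, FOSL2 and ATF3 lay at 3.83, 3.43 and 3.39 CPM per kb, and the ranges of neighbours in that order overlapped. FOS at 0.528 CPM per kb and FOSB at 0.391 CPM per kb were lowest and overlapped. Per kilobase of the longest transcript, MAFF was at 17.0 and ATF3 at 6.51 CPM per kb in NC, which brought MAFF near JUNB and put ATF3 above EGR1 and FOSL2. Per kilobase of exon, in si-circ235-2 cells FOSL1 (85.9 CPM per kb) and JUND (68.4 CPM per kb) still led, but JUN (33.4 CPM per kb) and MAFF (16.2 CPM per kb) came next, and JUNB (8.23 CPM per kb) was level with FOSL2 (7.96 CPM per kb) within the replicate ranges. The ratio of the highest to the lowest of the 6 libraries ran from 1.73 for ATF3 to 3.79 for FOS.

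**Figure D1:**
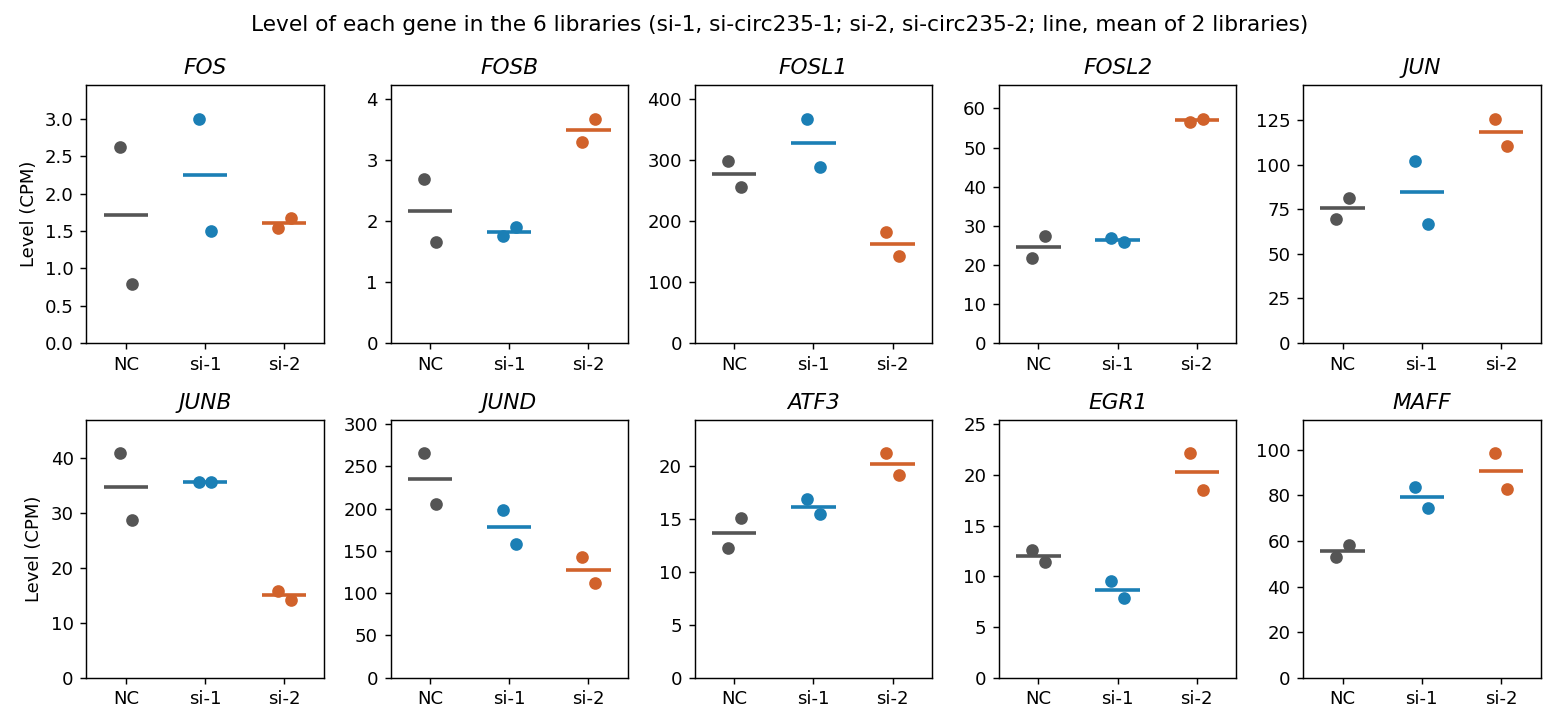
Level of each of the 10 genes in the 6 libraries, in CPM on a linear axis from 0, with 1 panel per gene, points for single libraries and a line for the mean of the 2 libraries. The si-circ235-2 libraries of FOSL2, at 56.6 and 57.4 CPM, lie above the other 4 libraries, and those of JUNB, at 15.9 and 14.1 CPM, lie below them.

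With si-circ235-1, no member of the group was called against NC. With si-circ235-2, 7 of 10 were called: FOSL2, JUN, EGR1 and MAFF were higher and FOSL1, JUNB and JUND lower, by 1.56-fold to 2.32-fold. The 0 of 10 for si-circ235-1 is read against 5.88% of all genes called in that comparison, and the 7 of 10 for si-circ235-2 against 31.4% of all genes, with 15.7% called higher and 15.7% called lower. In the direct comparison of the 2 siRNAs 4 of 10 were called, near the 39.7% of all genes (21.1% higher and 18.6% lower), with EGR1 and FOSL2 higher and FOSL1 and JUNB lower in si-circ235-2. Both comparisons with NC use the same 2 NC libraries, so they are not independent of each other. The median log2 fold change of the 10 genes was 0.13 for si-circ235-1 against NC, 0.60 for si-circ235-2 against NC and 0.26 for si-circ235-2 against si-circ235-1, beside medians over all genes of -0.03, 0.00 and 0.04. Libraries of the 2 conditions did not overlap for 4, 9 and 8 of the 10 genes in the 3 comparisons, against 55%, 71.4% and 72.1% of all genes. For si-circ235-1 against NC, MAFF alone reached p under 0.05 before adjustment (1 of 10, beside 3644 of 14415 genes), and DESeq2 made 0 calls among the 10 beside 10.5% of all genes.

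**Figure D2:**
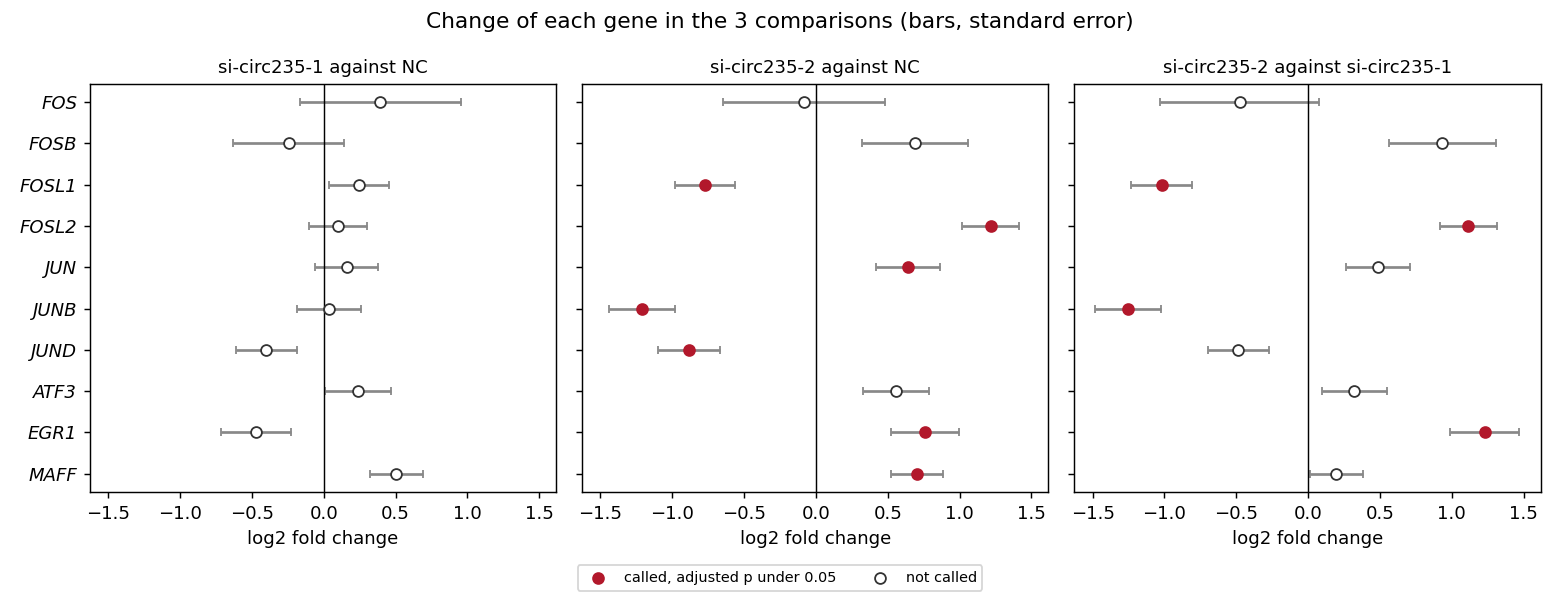
Log2 fold change with its standard error for the 10 genes in the 3 comparisons, filled where the adjusted p was under 0.05 (edgeR). No point is filled for si-circ235-1 against NC, 7 are filled for si-circ235-2 against NC, and 4 for si-circ235-2 against si-circ235-1.

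The FOS genes encode proteins that need a JUN partner to bind DNA. FOSL2 encodes FRA2 and lies on chromosome 2 (28392448 to 28417312, plus strand, GRCh38, GENCODE release 29, like all gene positions here). It overlaps FOSL2-AS1 on the opposite strand and ENSG00000270640 on its own strand, which had at most 2 and 4 counts per library and shared 0 exon bases with it. Its level was 21.7 and 27.3 CPM in the NC libraries, 26.8 and 25.8 CPM in the si-circ235-1 libraries, and 56.6 and 57.4 CPM in the si-circ235-2 libraries. The si-circ235-2 libraries stood apart from all others, and the si-circ235-1 libraries fell inside the range of NC. FOSL2 rose 2.32-fold with si-circ235-2 against NC (log2 fold change 1.22 ± 0.20 SE, adjusted p = 0.00290) and 2.17-fold against si-circ235-1 (1.12 ± 0.20, adjusted p = 0.00195). With si-circ235-1 its log2 fold change against NC was 0.10 ± 0.20 (adjusted p = 0.801). It was called with si-circ235-2 against NC under each of the 13 other settings run.

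FOSL1 (chromosome 11, 65892049 to 65900573, minus strand) went the other way. Its level was 298 and 255 CPM in NC, 368 and 289 CPM in si-circ235-1, and 182 and 142 CPM in si-circ235-2. Each si-circ235-2 library lay below the other 4, while si-circ235-1 and NC overlapped. FOSL1 was 1.71-fold lower with si-circ235-2 than in NC (log2 fold change -0.77 ± 0.21, adjusted p = 0.0192) and 2.03-fold lower than with si-circ235-1 (-1.02 ± 0.21, adjusted p = 0.00384). Against NC it was not called with a length and GC trend removed, without TMM factors, without NC replicate 1 or without si-circ235-2 replicate 2. Against si-circ235-1 it was called under each of the 13 other settings.

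FOS and FOSB, the classical early members, were near the detection limit. FOS (chromosome 14, 75278774 to 75282230, plus strand) had 13 to 43 counts per library, or 2.62 and 0.795 CPM in NC, 3.01 and 1.51 CPM in si-circ235-1, and 1.53 and 1.67 CPM in si-circ235-2. The NC libraries alone spanned most of that range. Its log2 fold change with si-circ235-2 against NC was -0.08 ± 0.56 (adjusted p = 0.931), which turned to 0.22 without TMM factors, and a change was not detectable at this depth and spread. FOSB (chromosome 19, 45467995 to 45475179, plus strand) had 2.69 and 1.65 CPM in NC, 1.75 and 1.90 CPM in si-circ235-1, and 3.30 and 3.68 CPM in si-circ235-2. Its si-circ235-2 libraries were the highest of the 6, but 25 to 77 counts per library left the log2 fold change against NC at 0.69 ± 0.37 (adjusted p = 0.175). FOSB lies within ERCC1 on the opposite strand, with 0 shared exon bases.

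The JUN genes encode the partners that can also pair with each other. JUN (chromosome 1, 58780788 to 58784327, minus strand) encodes the strongest activator of these. It had 69.8 and 81.6 CPM in NC, 102 and 66.7 CPM in si-circ235-1, and 126 and 110 CPM in si-circ235-2. Both si-circ235-2 libraries lay above the other 4, and the si-circ235-1 libraries spanned NC. JUN rose 1.56-fold with si-circ235-2 against NC (log2 fold change 0.64 ± 0.22, adjusted p = 0.0481). That call was the closest to the threshold among the 7 and was lost under the replicate block (adjusted p = 0.0515), with DESeq2 size factors in edgeR, and when NC replicate 1, NC replicate 2 or either si-circ235-2 library was left out. Between the 2 siRNAs its log2 difference was 0.48 ± 0.22 (adjusted p = 0.105).

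JUNB, known as a weaker activator that can oppose JUN, lies on chromosome 19 (12791496 to 12793315, plus strand). It had 40.9 and 28.7 CPM in NC, 35.6 and 35.7 CPM in si-circ235-1, and 15.9 and 14.1 CPM in si-circ235-2. The si-circ235-2 libraries were the lowest, and the si-circ235-1 libraries sat within the range of NC. JUNB was 2.32-fold lower with si-circ235-2 than in NC (log2 fold change -1.21 ± 0.23, adjusted p = 0.00437) and 2.38-fold lower than with si-circ235-1 (-1.25 ± 0.23, adjusted p = 0.00217). Without NC replicate 1 the call against NC was lost (adjusted p = 0.0600). HOOK2 on the opposite strand shares 259 exon bases with JUNB, 14.2% of its exon length, and without strand information reads there cannot be assigned. HOOK2 had 76 to 183 counts per library beside 269 to 640 for JUNB.

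JUND, the JUN gene known for steady expression in resting cells, lies on chromosome 19 (18279760 to 18281622, minus strand). It had 265 and 205 CPM in NC, 198 and 158 CPM in si-circ235-1, and 142 and 112 CPM in si-circ235-2. The 3 conditions did not overlap, with si-circ235-1 between the other two. JUND was 1.85-fold lower with si-circ235-2 than in NC (log2 fold change -0.88 ± 0.21, adjusted p = 0.0115). The log2 fold change with si-circ235-1 was -0.40 ± 0.21 (adjusted p = 0.273), and the 2 siRNAs differed by -0.48 ± 0.21 (adjusted p = 0.0939). Its call against NC was lost without NC replicate 1 or si-circ235-2 replicate 2, and its direction turned with a length and GC trend removed.

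ATF3, a stress-induced partner of the JUN proteins, lies on chromosome 1 (212565334 to 212620777, plus strand). It had 12.3 and 15.1 CPM in NC, 16.9 and 15.4 CPM in si-circ235-1, and 21.2 and 19.1 CPM in si-circ235-2. The conditions followed that order without overlap. No comparison was called, the log2 fold change with si-circ235-2 against NC being 0.56 ± 0.23 (adjusted p = 0.0859). It was called in that comparison in 1 of the 13 other settings, without TMM factors.

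MAFF encodes a small MAF protein, which has no activation domain of its own and pairs with FOS proteins or with the stress regulators of the NRF family. It lies on chromosome 22 (38200767 to 38216511, plus strand) and overlaps PLA2G6 on the opposite strand (46 to 136 counts per library), with 0 shared exon bases. Its level was 53.0 and 58.4 CPM in NC, 83.7 and 74.6 CPM in si-circ235-1, and 98.5 and 83.0 CPM in si-circ235-2. All 4 circ235 siRNA libraries lay above NC, and the 2 siRNAs overlapped each other. MAFF rose 1.63-fold with si-circ235-2 against NC (log2 fold change 0.70 ± 0.18, adjusted p = 0.0158). With si-circ235-1 the log2 fold change was 0.51 ± 0.18 (adjusted p = 0.119), and the log2 difference between the siRNAs was 0.20 ± 0.18 (adjusted p = 0.415). Its call with si-circ235-2 was lost without NC replicate 1 or si-circ235-2 replicate 1.

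EGR1 encodes a zinc finger factor outside AP-1 that is induced through SRF and the ternary complex factors. It lies on chromosome 5 (138465490 to 138469315, plus strand). It had 12.6 and 11.4 CPM in NC, 9.51 and 7.82 CPM in si-circ235-1, and 22.1 and 18.5 CPM in si-circ235-2. The si-circ235-1 libraries were the lowest and the si-circ235-2 libraries the highest, with no overlap. EGR1 rose 1.69-fold with si-circ235-2 against NC (log2 fold change 0.76 ± 0.24, adjusted p = 0.0328), while with si-circ235-1 the log2 fold change was -0.47 ± 0.24 (adjusted p = 0.249). Between the siRNAs it was 2.35-fold higher with si-circ235-2 (1.23 ± 0.24, adjusted p = 0.00291), a call made under each of the 13 other settings. The call against NC was lost without NC replicate 1, NC replicate 2 or si-circ235-2 replicate 1.

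NC replicate 1 had the most weight in these calls: without it 1 of the 10 genes (FOSL2) was called with si-circ235-2 against NC, where all 6 libraries gave 7. Over all genes the count of calls then fell from 4530 to 769.

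Length and GC content of the transcripts moved with the changes. The 4 genes called higher with si-circ235-2 had longest transcripts of 3138 to 6708 bases at 53.3% to 61.9% GC, and the 3 called lower had 1669 to 1863 bases at 60.04% to 69.7% GC. Over all genes in this comparison, the tenth with the shortest transcripts had a median log2 fold change of -0.67 and the tenth with the longest 0.58. The tenth with the highest GC content had a median of -0.68 and the tenth with the lowest -0.16. With a smooth trend over length and GC content removed from each library, FOSL2 (0.74, adjusted p = 0.00990), JUN (0.64, adjusted p = 0.0195), EGR1 (0.79, adjusted p = 0.0131) and MAFF (1.00, adjusted p = 0.00374) were still called higher with si-circ235-2 against NC, 4 genes beside 25.9% of all genes called and 11.2% called higher. The 3 genes that were lower were not called then: FOSL1 had a log2 fold change of -0.19 (adjusted p = 0.325), JUNB of -0.39 (adjusted p = 0.0805) and JUND of 0.14 (adjusted p = 0.509). In the comparison between the siRNAs, FOSL1 (-0.68, adjusted p = 0.00374), JUNB (-0.72, adjusted p = 0.00485), FOSL2 (0.50, adjusted p = 0.0255) and EGR1 (1.01, adjusted p = 0.00243) were called in the same direction with the trend removed, 4 of 10 beside 40.4% of all genes. For si-circ235-1 against NC the trend-removed fit called FOSL1 (0.50, adjusted p = 0.0383) and MAFF (0.84, adjusted p = 0.00952) higher, 2 of 10 beside 13.7% of all genes called and 8.26% called higher.

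**Figure D3:**
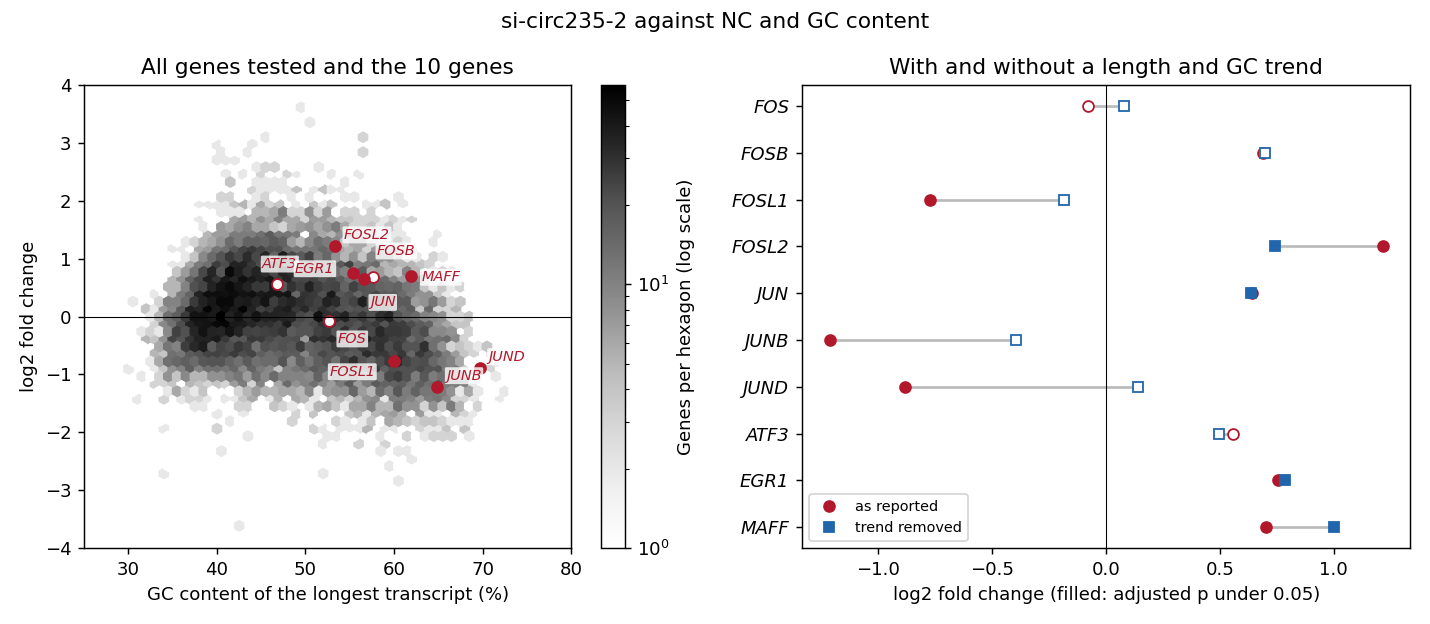
Left, log2 fold change for si-circ235-2 against NC over the GC content of the longest transcript, with all genes tested in grey (log color scale) and the 10 genes in red, filled where called. Right, the log2 fold change of each of the 10 genes as reported (circle) and with a length and GC trend removed (square), filled where the adjusted p was under 0.05, with JUNB moving from -1.21 to -0.39 and JUND from -0.88 to 0.14.

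Scaling changed which of the 10 genes were called and, in part, how many. When the TMM factors were left out, all genes with si-circ235-2 against NC had a median of 0.25 on the log2 scale, and 31% of genes were called, 22% higher and 8.98% lower. In that setting 7 of the 10 genes were again called, with ATF3 added and FOSL1 lost, so that 5 were higher and 2 lower. Between the siRNAs, 6 of the 10 genes were called without TMM factors in place of 4, with FOSB and JUN added, 4 higher and 2 lower, beside 41.8% of all genes (31.5% higher and 10.4% lower).

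**Figure D4:**
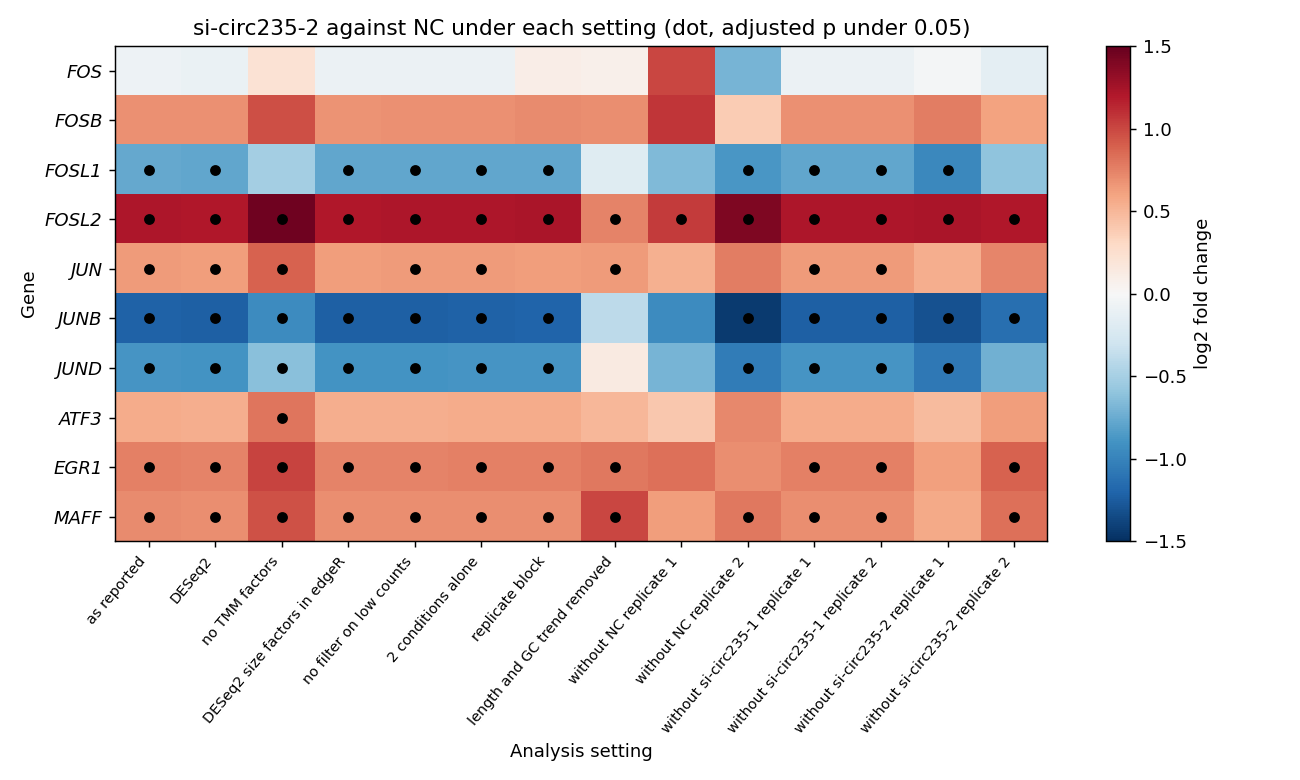
Log2 fold change of the 10 genes (rows) with si-circ235-2 against NC under each setting of the analysis (columns) on a color scale from -1.5 to 1.5, with a dot where the adjusted p was under 0.05. FOSL2 has a dot in every column, FOS and FOSB in none, and the column without NC replicate 1 has 1 dot.

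The other dimer partners and small MAF genes gave 0 calls among 7 tested with si-circ235-1 (2 with unadjusted p under 0.05, 0 by DESeq2). They gave 3 with si-circ235-2 against NC and 4 between the siRNAs. The shares of all genes called in these comparisons were 5.88%, 31.4% and 39.7%. JDP2, a repressor that pairs with JUN, had 16.9 and 17.9 CPM in NC, 33.6 and 24.4 CPM in si-circ235-1, and 10.4 and 7.79 CPM in si-circ235-2. It fell with si-circ235-2 against NC (log2 fold change -0.94 ± 0.26, adjusted p = 0.0193) and against si-circ235-1 (-1.68 ± 0.26, adjusted p = 0.00108). BATF3, another JUN partner, also fell against NC (-1.15 ± 0.27, adjusted p = 0.00919). Of the small MAF genes, MAFG rose with si-circ235-2 against NC (0.92 ± 0.20, adjusted p = 0.00711), and MAFK was higher with si-circ235-2 than with si-circ235-1 (1.58 ± 0.36, adjusted p = 0.00588). With si-circ235-1 MAFG had a log2 fold change of 0.26 ± 0.20, and ATF2, a constitutive JUN partner with no call, one of -0.08 ± 0.33.

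Of 38 other immediate early genes 36 were tested. With si-circ235-1 against NC 3 were called, 1 higher (BTG2) and 2 lower (NR4A1 and EGR4), with si-circ235-2 against NC 9 were higher and 3 lower, and between the siRNAs 11 were higher and 5 lower with si-circ235-2. The median log2 fold change of the list was -0.09, 0.25 and 0.39 in these comparisons, beside -0.033, -0.004 and 0.035 over all genes. The shares of all genes called were 5.88%, 31.4% (15.7% higher, 15.7% lower) and 39.7% (21.1% higher, 18.6% lower). Without TMM factors the split between the siRNAs was 20 higher and 2 lower. In that setting 31.5% of all genes were called higher and 10.4% lower, with an all-gene median of 0.37. KLF6, a zinc finger factor, had 98.7 and 130 CPM in NC, 87.1 and 91.8 CPM in si-circ235-1, and 305 and 317 CPM in si-circ235-2. It rose with si-circ235-2 against NC (1.45 ± 0.19, adjusted p = 0.00179) and was higher than with si-circ235-1 (1.80 ± 0.20, adjusted p = 0.000418). The same comparisons called NFKBIZ, an IκB-like cofactor of NF-κB (1.31 ± 0.20, adjusted p = 0.00256, and 1.71 ± 0.21, adjusted p = 0.000526), and CCN1, a matrix protein induced by serum (0.62 ± 0.20, adjusted p = 0.0397, and 1.31 ± 0.21, adjusted p = 0.00115). The survival gene MCL1 rose with si-circ235-2 against NC (1.16 ± 0.19, adjusted p = 0.00303), and the stress gene GADD45B fell (-1.39 ± 0.24, adjusted p = 0.00311). IER5L fell against NC (-1.09 ± 0.21, adjusted p = 0.00472) and against si-circ235-1 (-1.27 ± 0.21, adjusted p = 0.00144). With si-circ235-1, the antiproliferative gene BTG2 rose (1.08 ± 0.24, adjusted p = 0.0317) and the orphan receptor NR4A1 fell (-1.77 ± 0.45, adjusted p = 0.0471). The list moved both ways in every comparison, as the 10 genes did with si-circ235-2.

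**Figure D5:**
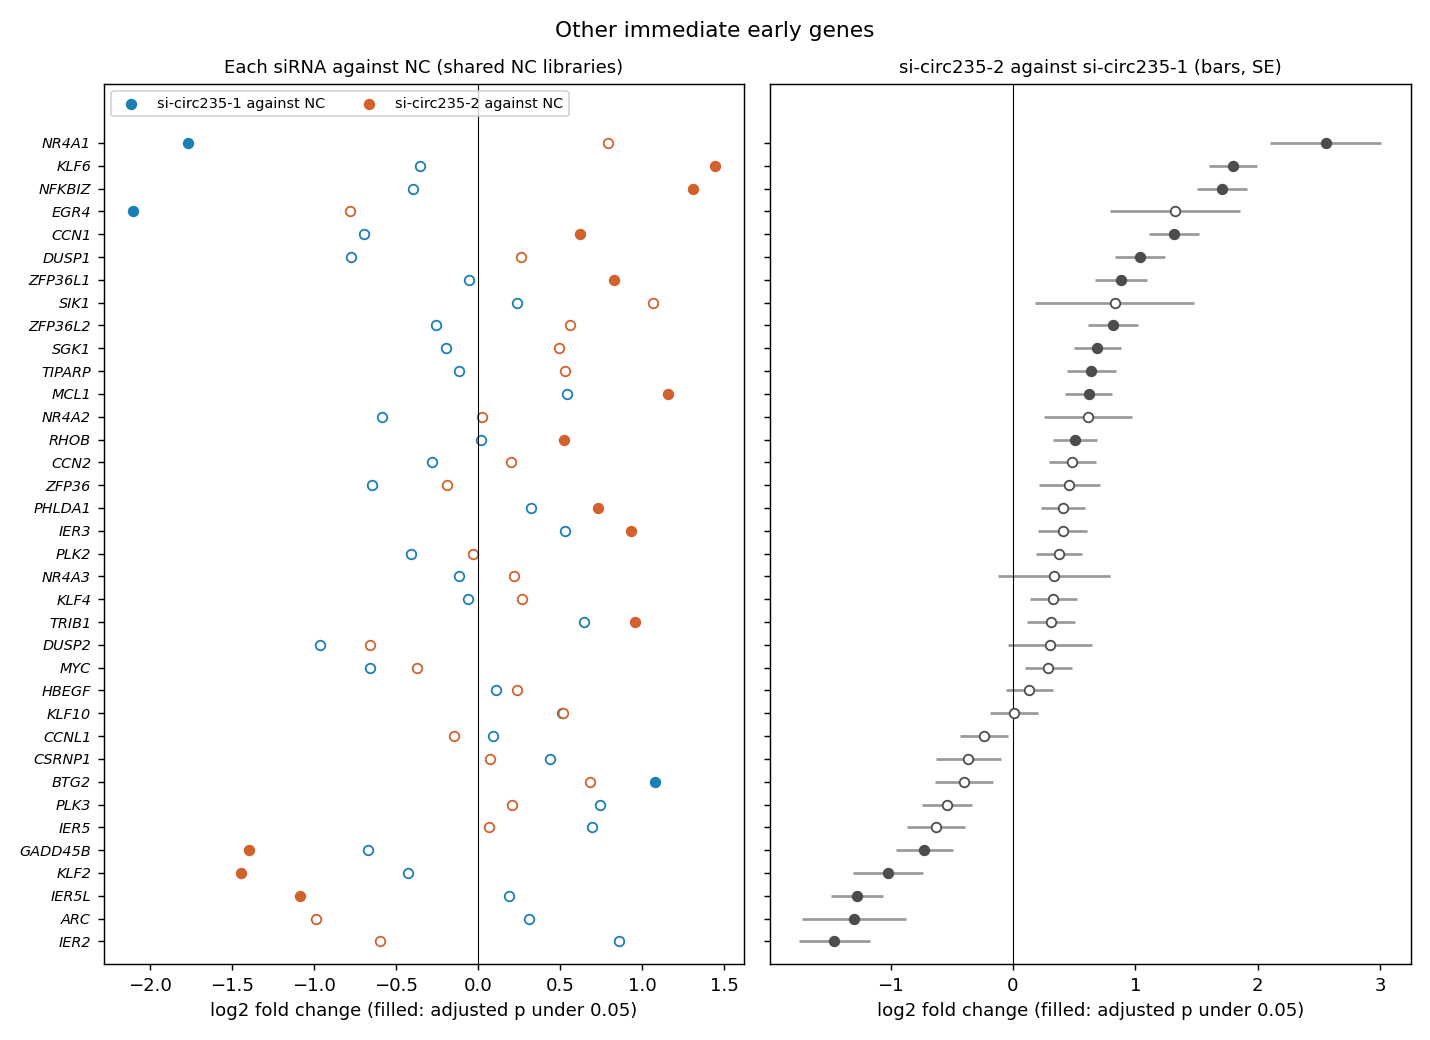
Log2 fold changes of the 36 other immediate early genes tested, sorted by the difference between the siRNAs. Left, each siRNA against the shared NC libraries. Right, si-circ235-2 against si-circ235-1 with standard errors, filled where the adjusted p was under 0.05, where 11 filled points lie above 0 and 5 below.

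Of the 24 kinases and factors upstream of these genes, 2 were called with si-circ235-1 against NC (1 higher, 1 lower). With si-circ235-2 against NC 7 were called (5 higher, 2 lower), and between the siRNAs 11 (8 higher, 3 lower). These counts were near the shares of all genes called, 5.88%, 31.4% and 39.7%. SRF, which acts at the CArG boxes of genes such as EGR1, had 54.9 and 52.3 CPM in NC, 30.8 and 25.6 CPM in si-circ235-1, and 71.6 and 65.8 CPM in si-circ235-2. The 3 conditions did not overlap, and their order was that of EGR1. In the single comparisons, libraries did not overlap for 55% to 72.1% of all genes. Whether the level of SRF bears on EGR1 in these cells was not tested. SRF fell with si-circ235-1 (-0.93 ± 0.19, adjusted p = 0.0225), had a log2 fold change of 0.36 ± 0.19 with si-circ235-2 against NC (adjusted p = 0.166), and differed between the siRNAs by 1.29 ± 0.19 (adjusted p = 0.000968). The ternary complex factor ELK1 was higher with si-circ235-2 than with si-circ235-1 (1.23 ± 0.23, adjusted p = 0.00256), and ELK4 rose against NC (1.25 ± 0.28, adjusted p = 0.00854). Among the kinases, MAPK14, a stress-activated p38 kinase gene, rose with si-circ235-2 against NC (1.04 ± 0.18, adjusted p = 0.00343), while MAP2K2, which encodes a MAP kinase kinase, fell (-1.11 ± 0.25, adjusted p = 0.00831). MAPK8, which encodes a JUN kinase, rose with si-circ235-1 (0.84 ± 0.20, adjusted p = 0.0358).

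Known AP-1 target genes, 16 tested of 20, gave 4 higher and 0 lower with si-circ235-1 against NC, 7 higher and 3 lower with si-circ235-2 against NC, and 4 each way between the siRNAs. The median log2 fold change of the list was 0.55, 0.37 and -0.06, beside -0.033, -0.004 and 0.035 over all genes. The shares of all genes called were 5.88%, 31.4% and 39.7%. PLAUR, the urokinase receptor, had 40.5 and 39.7 CPM in NC, 123 and 117 CPM in si-circ235-1, and 52.3 and 41.1 CPM in si-circ235-2. It rose with si-circ235-1 (1.58 ± 0.19, adjusted p = 0.00593), and its log2 fold change with si-circ235-2 was 0.22 ± 0.19 (adjusted p = 0.407). The matrix protease gene MMP3 rose with both siRNAs (1.67 ± 0.28, adjusted p = 0.0127, and 1.92 ± 0.28, adjusted p = 0.00215), as did the coagulation gene F3 (1.44 ± 0.31, adjusted p = 0.0277, and 0.98 ± 0.31, adjusted p = 0.0344). The chemokine gene CCL2 rose with si-circ235-1 (1.81 ± 0.30, adjusted p = 0.0127) and fell with si-circ235-2 (-1.16 ± 0.33, adjusted p = 0.0214). Its fall with si-circ235-2 was not called with the length and GC trend removed (-0.88, adjusted p = 0.0524). With si-circ235-2 against NC, the angiogenic factor gene VEGFA rose (0.95 ± 0.19, adjusted p = 0.00523), and TIMP1, an inhibitor of matrix proteases, fell (-1.29 ± 0.26, adjusted p = 0.00560).

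The stress lists covered the integrated stress response, the response to double-stranded RNA and heat shock. Their counts are read against 5.88% of all genes called with si-circ235-1 against NC, 31.4% with si-circ235-2 against NC and 39.7% between the siRNAs. Of 12 integrated stress response genes, 1 was called with si-circ235-1 (lower), 3 with si-circ235-2 (1 higher, 2 lower) and 4 between the siRNAs (1 higher, 3 lower). PHGDH, an enzyme of serine synthesis, fell with si-circ235-2 against NC (-0.82 ± 0.23, adjusted p = 0.0196). CHAC1, a glutathione-degrading target of that response, fell with si-circ235-1 (-1.18 ± 0.26, adjusted p = 0.0277) and si-circ235-2 (-1.32 ± 0.26, adjusted p = 0.00474). Of the double-stranded RNA response genes, 10 of 14 were tested, with 0 calls for si-circ235-1 (0 at unadjusted p under 0.05 and 0 by DESeq2), where the interferon-induced gene ISG15 had a log2 fold change of 0.20 ± 0.28. For si-circ235-2 against NC, 1 was higher and 1 lower, and ISG15 fell (-1.05 ± 0.28, adjusted p = 0.0181). With the length and GC trend removed, 0 of these genes were called in that comparison. Between the siRNAs, 1 was called higher and 2 lower with si-circ235-2. Of 10 heat shock genes 8 were tested, with 0 calls for si-circ235-1 (4 at unadjusted p under 0.05 and 4 by DESeq2), where the chaperone genes HSPA8 and HSP90AA1 had log2 fold changes of 0.27 ± 0.22 and 0.63 ± 0.23. With si-circ235-2 against NC, HSPB1 (-1.56 ± 0.25, adjusted p = 0.00276) and HSPE1 (-0.92 ± 0.26, adjusted p = 0.0219) fell, and between the siRNAs 4 heat shock genes were lower with si-circ235-2.

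The gene most like each of the 10 in its pattern was sought among 8994 or 8995 other genes with a mean of at least 10 CPM, by Pearson's r of log2 CPM over the 6 libraries, which fall into 3 conditions. FOSL2 was most like TMEM43 (r = 0.999), JUNB most like SLC25A1 (r = 0.999), and FOSL1 most like PIEZO1 (r = 0.997). ATF3 was most like TFDP1 (r = 0.998), MAFF most like AK4 (r = 0.997), EGR1 most like PRDM11 (r = 0.996), JUND most like MPG (r = 0.996) and JUN most like TGM2 (r = 0.994). With 6 libraries such values were common: an r above 0.95 was reached by 968 genes for JUNB, 677 for FOSL2 and 284 for EGR1. FOS and FOSB, at low counts, reached 0.928 with ACTR5 and 0.976 with VPS39, with 0 and 4 genes above 0.95.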

How the data were processed

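Polyadenylated RNA of T24 cells was sequenced in 6 libraries, 2 per condition. The authors deposited whole-number counts per gene without normalization. The submitters' processing notes name FastQC, cutadapt, STAR and the build hg38. Names of the counting tool and its annotation were not given in the sources used here. Libraries were assigned to conditions and numbered by their labels, and 0 columns were unused.

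Symbols, positions, length and GC content came from GENCODE release 29 (GRCh38), which held 57980 of the 58288 identifiers, and promoter sequences from RefSeq (GRCh38.p14). Tests used edgeR 4.0.16 in R 4.3.3 (low counts filtered by filterByExpr, TMM factors, 1 mean per condition over all 6 libraries, quasi-likelihood test, Benjamini-Hochberg adjustment over 14415 genes, threshold 0.05). Fitted log2 fold changes are relative to TMM scaling. The libraries are labelled biological replicates, but separate cultures are not described, so p-values measure the spread between these libraries.

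The 10 genes and the gene lists were chosen with earlier results of these data known. All 10 genes are named. From each list and comparison, up to 4 called genes with the lowest adjusted p and a mean of at least 5 CPM are named, or, where none was called, the 2 with the highest mean CPM. Some genes that the rule selects are not reported here. EGR4 is named outside that rule, after its values were seen. For each of the 10 genes, the most alike gene by Pearson's r and genes overlapping it are named.

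Alternatives were DESeq2 1.42.0, no TMM factors, DESeq2 size factors in edgeR, no filter on low counts, only the 2 conditions compared, a block for the replicate number, a natural spline trend (5 degrees of freedom each) over log2 length and GC content removed from each library, and each library left out. The depth of 15373992 to 19912893 counts limits genes such as FOS. In 10 simulated data sets of 14415 genes per comparison, each with 200 genes moved by a log2 change of 1, the test found 57%, 54.8% and 55.9% of them for si-circ235-1 against NC, si-circ235-2 against NC and si-circ235-2 against si-circ235-1, and 9.97%, 9.10% and 8.45% of its calls were false, more than the threshold of 0.05 aims at. The moved genes were drawn only from genes above a limit on expected counts, which leaves out genes as low as FOS. Fewer genes were moved than were called in the data, so these shares need not carry over to the comparisons above.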

Additional observations from a re-analysis of the deposited data

Results flagged for a closer look

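For the 27 genes below, the effects of the 2 siRNAs against the shared NC libraries differed. The direct comparison of si-circ235-2 with si-circ235-1 called each of them (edgeR quasi-likelihood test, adjusted p under 0.05). Apart from EGR1, FOSL2, FOSL1 and JUNB, they were picked by the naming rule, which required a call in this same comparison. It called 39.7% of all genes tested, but a count of genes picked by their calls cannot be set against that share. Other genes of the lists were also called in it, among them MCL1, GADD45B, NR4A1, MAPK14 and ELK4, which are named above for other comparisons. Not all these calls held with the length and GC trend removed. MAFG (0.23, adjusted p = 0.220), MCL1 (0.16, adjusted p = 0.337) and MAPK14 (-0.05, adjusted p = 0.759) were not called then. GADD45B, NR4A1, ELK4 and the dimer partners JDP2, MAFK and BATF3 still were. The values are log2 differences, positive where si-circ235-2 was higher.

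Among the 10 genes, EGR1 differed by 1.23 ± 0.24 and FOSL2 by 1.12 ± 0.20, while FOSL1 differed by -1.02 ± 0.21 and JUNB by -1.25 ± 0.23. Of the dimer partners, MAFK differed by 1.58, MAFG by 0.66, BATF3 by -0.87 and JDP2 by -1.68. Of the other immediate early genes, KLF6 differed by 1.80, NFKBIZ by 1.71, CCN1 by 1.31 and IER5L by -1.27.

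Upstream, SRF differed by 1.29, ELK1 by 1.23 and MAP2K2 by -1.64. Of the AP-1 targets, PLAUR differed by -1.36, TIMP1 by -2.08 and CCL2 by -2.98, the last with effects of opposite sign against NC that were each called. With the length and GC trend removed, CCL2 was still called against NC with si-circ235-1 (1.66, adjusted p = 0.00687). It was then not called with si-circ235-2 (-0.88, adjusted p = 0.0524).

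In the stress lists, these genes were lower with si-circ235-2: PPP1R15A by -0.56, HSPH1 by -0.77, DDIT3 by -0.83, HSP90AA1 by -0.87, IRF7 by -1.08, ISG15 by -1.25, PHGDH by -1.26, HSPE1 by -1.79 and HSPB1 by -2.08. Beside them, 1 integrated stress response gene and 1 double-stranded RNA response gene were called higher with si-circ235-2. Groups of 2 libraries were too small to test for a library apart from the rest.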

How the results depend on the processing

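For si-circ235-2 against NC, the number of the 10 genes called was 4 with the length and GC trend removed and 1 to 7 with single libraries left out, where a lone library is assumed to vary like the other conditions; for si-circ235-1 against NC it was 2 with the trend removed. Among all genes, calls for si-circ235-1 against NC went from 847 to 1519 with DESeq2, 1678 without the filter, 1642 with 2 conditions alone, 1969 with the trend removed and 0 to 1482 with single libraries left out (0 without si-circ235-1 replicate 2). With single libraries left out, calls ranged from 769 to 4240 for si-circ235-2 against NC and from 2817 to 5558 between the siRNAs. The cause of these differences was not tested.

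Directions turned for log2 fold changes that were not called, except JUND with si-circ235-2. FOS with si-circ235-2 against NC was 0.22 without TMM factors, 0.10 with the replicate block and 0.079 with the trend removed. With the trend removed, FOSB with si-circ235-1 was 0.068, and JUND was 0.14 with si-circ235-2 against NC and 0.31 between the siRNAs. JUNB with si-circ235-1 was -0.025 without TMM factors. With single libraries left out, FOS ran from -0.19 to 1.48 with si-circ235-1, -0.70 to 1.00 with si-circ235-2 and -0.91 to 0.090 between the siRNAs. With si-circ235-1, the ranges were -0.52 to 0.14 for FOSB, -0.057 to 0.31 for FOSL2, -0.19 to 0.44 for JUN, -0.16 to 0.31 for JUNB, -0.37 to 0.15 for ATF2 and -0.10 to 0.64 for ISG15.

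The labels give no batch, litter or day behind the replicate numbers, and deviations of same-numbered libraries correlated at -0.09, 0.15 and 0.14 over 14415 genes, so the numbers were not taken to pair the libraries. The replicate block called 937, 4750 and 6043 genes in the 3 comparisons and 0, 6 and 5 of the 10 genes, with JUN lost against NC and JUND added between the siRNAs.

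Counts of calls over the 13 settings ran, for si-circ235-2 against NC, from 0 (without NC replicate 1) to 4 for the dimer partners, 4 (without NC replicate 1) to 17 for the other immediate early genes, 2 (without NC replicate 1) to 10 upstream, 1 (without NC replicate 1) to 12 for AP-1 targets, 0 (without NC replicate 1) to 6 for the integrated stress response, 0 to 4 for double-stranded RNA and 1 (without NC replicate 1) to 3 for heat shock, where the values reported were 3, 12, 7, 10, 3, 2 and 2. For si-circ235-1 they ran from 0 to 2, 0 to 14, 0 to 6, 0 to 9, 0 to 5, 0 to 0 and 0 to 4 around 0, 3, 2, 4, 1, 0 and 0, and between the siRNAs from 2 to 4, 9 to 22, 5 to 11, 6 to 10, 1 to 5, 0 to 4 and 2 to 5 around 4, 16, 11, 8, 4, 3 and 4. For si-circ235-2 against NC, the 0 for double-stranded RNA was reached with the length and GC trend removed. Depth limits FOS and FOSB, at 13 to 77 counts per library.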
